A study of Mus musculus with 48 samples.

Results

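The translation initiation and elongation factors of mouse muscle were taken as every gene of the deposited count table whose symbol starts with Eif1 to Eif6 or with Eef1 or Eef2. Of 66 matching symbols, 2 were pseudogenes and were left out. This gave 64 genes of 14125, among them the regulators that share these names: the eIF4E binding proteins, the kinases of eIF2alpha, the eEF2 kinase and the methyltransferases of the elongation factors. The low-count filter passed 63 of the 64. Eif5a2, the second eIF5A gene, was removed by it, with group medians of 0.26 to 0.34 CPM (counts per 1000000 of the scaled library total) and no counts in at least 1 library of every group but EtOH_CON.

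RNA was measured in mixed gastrocnemius, a calf muscle, of male C57BL6J mice, in 48 libraries. EtOH_CON (n = 10) drank water with 1% ethanol and ate control diet, and EtOH_ATGLi (n = 10) had the same water with 571 mg/kg atglistatin in the diet. Cort_CON (n = 14) drank water with 100 ug/ml corticosterone on control diet, and Cort_ATGLi (n = 14) had corticosterone and the atglistatin diet. Treatment lasted 2 weeks. In mice corticosterone is the chief glucocorticoid, and atglistatin inhibits adipose triglyceride lipase, which begins the breakdown of stored fat. The records used here do not say if the corticosterone was given in ethanol water. The labels call 9 of the Cort_CON mice diabetic and the other mice nondiabetic. They do not state that a library is 1 mouse. It was taken as one because glucose and insulin are listed separately for each, and if that reading is wrong the p-values measure only the spread between these samples.

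Protein synthesis starts when the cap-binding complex eIF4F (eIF4E, the scaffold eIF4G and the helicase eIF4A) brings an mRNA to a small ribosomal subunit that carries eIF3 and the ternary complex of eIF2, GTP and initiator tRNA. Initiation is held back by 4E-BP proteins, which occupy eIF4E, and by kinases that phosphorylate eIF2alpha and so block its exchange factor eIF2B. In elongation eEF1A delivers aminoacyl-tRNA, eEF1B recharges eEF1A, and eEF2 moves the ribosome along unless its kinase has phosphorylated it. Adult muscle fibres are known for using Eef1a2, while most other cells use Eef1a1, and glucocorticoids are known to lower protein synthesis in muscle. Levels of mRNA, as measured here, do not report phosphorylation or protein.

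Promoters are shown for 3 members whose RNA rose with corticosterone on both diets: Eef2k, which encodes the eEF2 kinase, Eif3f, an eIF3 subunit, and Eif2b5, the catalytic subunit of eIF2B. Eif3f and Eef2k had the smallest p-values of all members in both comparisons. The stretches run from 250 bases before to 30 bases after an annotated start (RefSeq, GRCm38.p6, plus strand): chr7:120842581-120842860 for Eef2k, at the one of 3 annotated starts nearest the 5′ end of the gene, chr7:108934165-108934444 for Eif3f and chr16:20498567-20498846 for Eif2b5. Capitals mark matches to the searched hexamer motifs, and of the 3 stretches only that of Eif3f holds any.
Eef2k: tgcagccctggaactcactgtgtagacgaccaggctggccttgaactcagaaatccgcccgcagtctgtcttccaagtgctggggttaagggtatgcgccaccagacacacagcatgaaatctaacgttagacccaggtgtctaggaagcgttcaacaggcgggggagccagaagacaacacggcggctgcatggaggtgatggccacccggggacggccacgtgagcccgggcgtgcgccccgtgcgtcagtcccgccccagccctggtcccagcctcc
Eif3f: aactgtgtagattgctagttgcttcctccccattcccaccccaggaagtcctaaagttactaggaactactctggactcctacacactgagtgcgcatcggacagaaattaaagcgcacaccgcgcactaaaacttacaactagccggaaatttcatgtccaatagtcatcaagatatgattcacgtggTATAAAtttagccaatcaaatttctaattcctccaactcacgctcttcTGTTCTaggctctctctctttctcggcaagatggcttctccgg
Eif2b5: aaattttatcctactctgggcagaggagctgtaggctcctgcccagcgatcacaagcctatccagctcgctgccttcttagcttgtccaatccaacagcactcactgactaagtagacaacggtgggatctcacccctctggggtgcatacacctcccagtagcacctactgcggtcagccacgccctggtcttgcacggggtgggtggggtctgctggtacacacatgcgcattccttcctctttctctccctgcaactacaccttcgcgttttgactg

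The search covered both strands of windows of 300 bases, and 51 of the 64 members had an entry, with 66 annotated starts. The TATA box (TATAAA) begins 61 bases before the Eif3f start. TGTTCT, the reverse complement of AGAACA, begins 13 bases before it. AGAACA is one arm of the palindromic glucocorticoid response element. This arm was in 10.61% of member starts and in 18.97% of all 32851 starts. The full element (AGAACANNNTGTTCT), which contains the arm on each strand, was in 0 of 66 member starts and in 3 of all starts. The FoxO element (GTAAACA) was in 1 member start, that of Eif2s3y (1.52%, against 3.65% of all starts), and the TATA box in 7.58% of member starts against 13.62%. A start of the terminal oligopyrimidine kind, a C followed by 4 pyrimidines at the annotated first base, was found at Eif2s3x and Eif3f, 3.03% of member starts against 2.51% of all. These letters are matches within the windows and were not tested as binding sites.

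Total counts were 10453888 to 24034481 per library, so genes near 1 CPM rest on few reads. Library p01 of EtOH_CON, p41 of Cort_ATGLi and p45 of Cort_CON had the lowest median correlations with their own groups (0.952, 0.957 and 0.962). Values without them are given for some of the members that moved with them, not for all. In 47 libraries every deposited count was even, and in p13 of EtOH_ATGLi 49.6% of values were odd. No source used here says why. With halved counts the member calls were the same except for 1 gene in each of 2 comparisons. The 12 markers of skeletal muscle, such as Acta1 and Ckm, summed to a median of 137000 to 156000 CPM in the 4 groups. Counts come from transcript 3′ ends and were not scaled by length. Changes are compared between genes here, and levels are not. In whole muscle, more RNA per cell and more cells of a type cannot be told apart.

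RNA of most of the factors was higher in Cort_CON than in EtOH_CON, the corticosterone comparison on the control diet. Of 63 members, 34 rose and 0 fell (edgeR quasi-likelihood test, adjusted p under the threshold of 0.05). That is 54.0% of members, where 38.4% of all 12592 genes tested were called, 18.9% higher and 19.5% lower. The median log2 fold change of the members was 0.23, and that of all genes was -0.00. At an unadjusted p under the threshold, 36 members passed. Most changes were small: only Eef2k and Eif4ebp1 reached a doubling, and the lowest fitted change was -0.47. When libraries were scaled by total count alone, the median of all genes moved to -0.11, all genes split into 1431 higher and 3462 lower in place of 2384 and 2454, and members into 19 higher and 2 lower (Eef2kmt and Eif2ak3). The 15 members that lost their call on the control diet under that scaling were Eef1a2, Eif1ad, Eif1ax, Eif2b2, Eif2d, Eif2s1, Eif2s2, Eif3b, Eif3c, Eif3d, Eif3i, Eif4a1, Eif4g1, Eif4h and Eif5.

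On the atglistatin diet (Cort_ATGLi against EtOH_ATGLi) 26 members rose and 0 fell, 41.3% of the 63, beside 30% of all genes called (15% higher and 15% lower). The members' median log2 fold change was 0.19 and that of all genes -0.00. The groups on this diet share no library with the groups on control diet. On both diets 23 members were called, which is 67.6% of the control diet calls and 88.5% of the atglistatin diet calls. The fitted change was above 0 in 56 members on the control diet and in 57 on atglistatin. Under total count scaling all genes split into 1392 higher and 2173 lower in place of 1887 and 1894, and 22 members rose, with Eef1a2, Eif3l, Eif4b and Eif5 no longer called. The plot of the fold change distributions shows the members shifted to the right of all genes on both diets, with their bulk between 0 and 0.5.

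**Figure D1:**
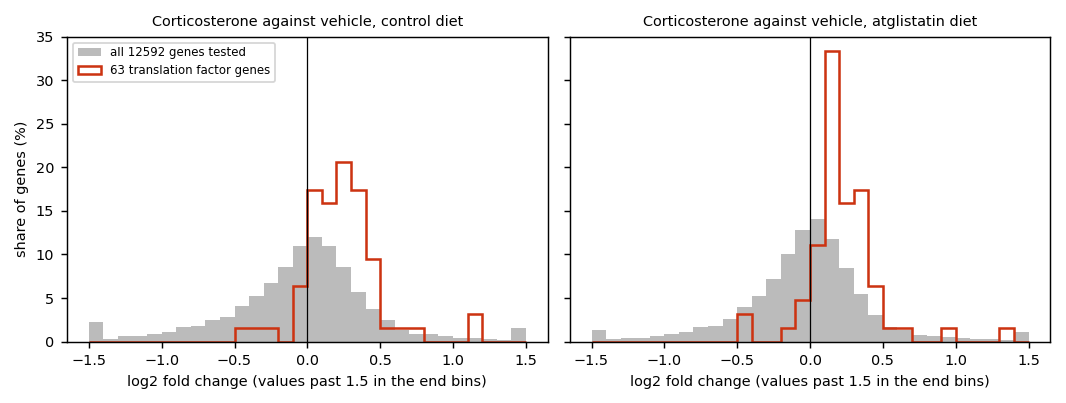
Share of genes (%) by log2 fold change, corticosterone against vehicle, on the control diet (left) and the atglistatin diet (right), with all 12592 tested genes in grey and the 63 translation factor genes as a red outline. The member medians were 0.23 and 0.19, and the medians of all genes were -0.00 in both panels.

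The 3 genes of eEF2 and its modifiers held the clearest change among the elongation factors. Eef2k encodes the kinase that inactivates eEF2 by phosphorylation (chromosome 7, 120842831 to 120907450, plus strand, GRCm38). Its level was 25.0 to 44.9 CPM in EtOH_CON (median 38.9) and 33.3 to 50.0 CPM in EtOH_ATGLi (median 41.6). With corticosterone it was 62.7 to 114.6 CPM in Cort_CON (median 90.2) and 50.0 to 116.8 CPM in Cort_ATGLi (median 81.4). Every Cort_CON library lay above every EtOH_CON library, and 13 of 14 Cort_ATGLi libraries lay above all EtOH_ATGLi libraries. The log2 fold change was 1.19 (SE 0.12, adjusted p = 1.02e-11) on the control diet and 0.93 (SE 0.12, adjusted p = 1.42e-08) on atglistatin. The difference between both changes was -0.26 (SE 0.17, adjusted p = 0.98, interval from -0.58 to 0.06), so none was shown.

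Eef2, the substrate of that kinase and the translocase of the ribosome (chromosome 10, 81176631 to 81182498, plus strand), rose as well. It ran from 390.3 to 725.4 CPM in EtOH_CON (median 683) and from 642 to 993.1 CPM in Cort_CON (median 807). On atglistatin it ran from 669.4 to 883.9 CPM with vehicle (median 748.4) and from 845.4 to 1111 CPM with corticosterone (median 971). The groups overlapped on both diets, by little on atglistatin, where 13 of 14 corticosterone libraries were above all vehicle libraries. The log2 fold change was 0.35 (SE 0.07, adjusted p = 0.000104) on the control diet and 0.38 (SE 0.07, adjusted p = 3.7e-05) on atglistatin, and without p01, the lowest EtOH_CON library, it was 0.28 (adjusted p = 0.000287). Eef2kmt, which methylates eEF2, was called on neither diet, at -0.21 (adjusted p = 0.095) and -0.06 (adjusted p = 0.72). Without library p27 of Cort_CON, Eef2kmt was called lower on the control diet (-0.27, adjusted p = 0.0219).

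**Figure D2:**
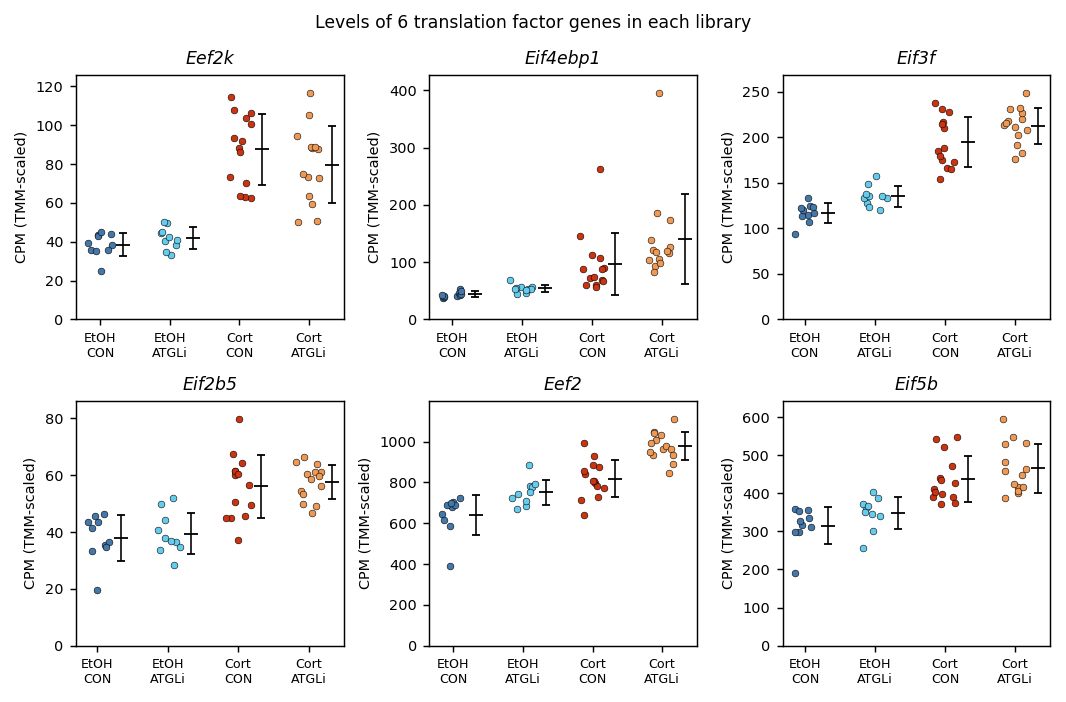
Level in CPM (TMM-scaled) of 6 translation factor genes in each library of the 4 groups, 1 point per library, with mean ± SD as bars beside the points. Eef2k, Eif4ebp1, Eif3f and Eif5b have every Cort_CON library above every EtOH_CON library, while Eif2b5 and Eef2 overlap.

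The eIF4E binding proteins did not move as a group. Eif4ebp1 (chromosome 8, 27260329 to 27276674, plus strand) encodes 4E-BP1, the inhibitor of cap binding that mTORC1 switches off by phosphorylation. It ran from 37.8 to 53.7 CPM in EtOH_CON (median 42.9), from 44.5 to 68.6 in EtOH_ATGLi (median 53.8), from 56.2 to 263 in Cort_CON (median 80.8) and from 83.5 to 396 in Cort_ATGLi (median 118). No corticosterone library overlapped the vehicle libraries of its diet. The log2 fold change was 1.14 (SE 0.22, adjusted p = 3.49e-05) on the control diet and 1.39 (SE 0.22, adjusted p = 2.17e-06) on atglistatin. The highest values came from p45 of Cort_CON and p41 of Cort_ATGLi, libraries that also stood apart from their groups overall. Without p45 the control diet change was 0.93 (SE 0.18, adjusted p = 5.71e-05), and without p41 the atglistatin diet change was 1.17 (SE 0.18, adjusted p = 1.26e-06).

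Eif4ebp2, its relative, was variable and was called on neither diet. Its level spanned 7.08 to 110.9 CPM in EtOH_CON (median 64.1) and 36.0 to 141 CPM in Cort_CON (median 86.8), and the groups overlapped widely. The fitted changes were 0.49 (interval from -0.06 to 1.04, adjusted p = 0.17) and 0.35 (interval from -0.20 to 0.90, adjusted p = 0.37). Eif4enif1, which carries eIF4E into the nucleus, had changes of 0.11 (adjusted p = 0.38) and 0.15 (adjusted p = 0.24).

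Within the Cort_CON group the Eif4ebp1 level was compared by disease label, and no test passed. The 5 mice labelled nondiabetic had 56.2 to 88.3 CPM (median 68.6) and the 9 labelled diabetic had 59.9 to 263 CPM (median 90.1), so the ranges overlapped. The fitted difference, diabetic minus nondiabetic, was 0.69 (SE 0.27, adjusted p = 0.93), and without p45 it was 0.43 (SE 0.24, adjusted p = 1.00). Of 13084 genes tested for this contrast 0 were called (0%), by edgeR and by DESeq2 alike among the members, and 4 members had an unadjusted p under the threshold: Eif4a1 (-0.30), Eif2b3 (0.35), Eif4ebp1 and Eif3j1 (0.36). The changes of the members in this contrast ran from -0.30 to 0.69.

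**Figure D3:**
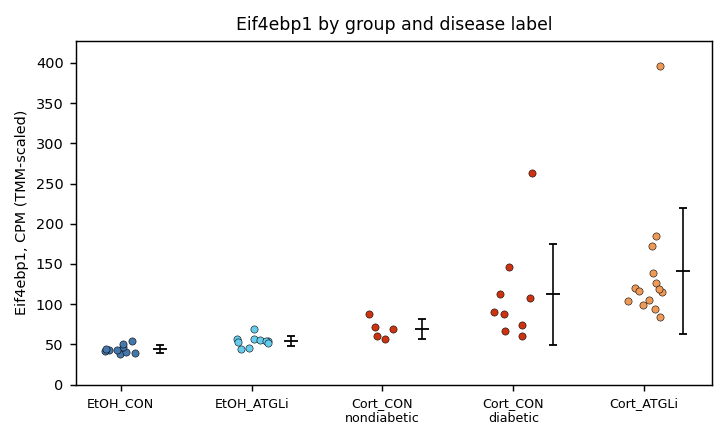
Eif4ebp1 level in CPM (TMM-scaled) in each library, with Cort_CON split by the disease label and mean ± SD beside the points. The 2 highest points are p41 of Cort_ATGLi (396 CPM) and p45 of Cort_CON (263 CPM).

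Genes for the cap-binding complex, its relatives and its helicase partners changed less than Eif4ebp1. Of 11 genes in this role 4 rose on the control diet and 2 on atglistatin. These shares were 36.4% and 18.2%, with every call upward. Of all genes, 38.4% and 30% were called in either direction, and 18.9% and 15% were called higher. Of the genes of eIF4F itself, only Eif4g1 and Eif4a1 were called, both on the control diet alone. Eif4g2, a relative of the eIF4G scaffold that lacks the eIF4E binding site and serves cap-independent initiation, rose on both diets, by 0.40 (SE 0.06, adjusted p = 1.97e-07) and 0.35 (SE 0.06, adjusted p = 3.33e-06). It ran from 476.3 to 607.3 CPM in EtOH_CON (median 549.3) and from 598.7 to 845.5 CPM in Cort_CON (median 733.1), and 13 of 14 Cort_CON libraries were above all EtOH_CON libraries. Eif4g1, the main scaffold, rose on the control diet (0.38, SE 0.13, adjusted p = 0.020) and was at 0.16 on atglistatin (interval from -0.10 to 0.42, adjusted p = 0.38). Its EtOH_CON level spanned 84.0 CPM in p01 to 420.6 CPM (median 342.3), its Cort_CON level 326.8 to 557 CPM (median 404.8), and without p01 the change was 0.26 (adjusted p = 0.0247). The Eif4g1 call was lost under total count scaling (0.28, adjusted p = 0.12), with only the groups compared in the fit (0.37, adjusted p = 0.052) and with nondiabetic Cort_CON mice only (0.39, adjusted p = 0.12). The gene for the cap-binding protein, Eif4e, had medians of 92.3 CPM in EtOH_CON and 96.2 CPM in Cort_CON, with changes of 0.08 (interval from -0.07 to 0.22, adjusted p = 0.44) and 0.01 (interval from -0.13 to 0.16, adjusted p = 0.91). Under total count scaling both Eif4e changes were below 0.

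Of the helicase genes, Eif4a1 rose on the control diet (0.26, SE 0.09, adjusted p = 0.0119), from 13.5 to 23.2 CPM in EtOH_CON to 16.8 to 27.6 CPM in Cort_CON, with wide overlap, and was at 0.20 on atglistatin (adjusted p = 0.069). Eif4a2, its near relative, had 0.22 (interval from -0.03 to 0.46, adjusted p = 0.17) and 0.13 (interval from -0.11 to 0.38, adjusted p = 0.47). The helicase cofactor Eif4h was called on the control diet (0.22, adjusted p = 0.00168) and its counterpart Eif4b on atglistatin (0.23, adjusted p = 0.0194). The interaction test found no difference between diets for any of these genes.

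The largest complex of initiation, eIF3, bridges the ribosome and eIF4G. Of its 14 tested genes 11 rose on the control diet and 8 on atglistatin, with medians of 0.31 and 0.26. These are 78.6% and 57.1% of the role, beside 38.4% and 30% of all genes called. With nondiabetic Cort_CON mice only, and so fewer mice, Eif3b, Eif3c, Eif3d, Eif3i, Eif3j1 and Eif3j2 lost the control diet call. Their adjusted p then ran from 0.078 to 0.29. Eif3f (chromosome 7, 108934417 to 108942951, plus strand, with the promoter printed above), whose protein is known as a target of the ubiquitin ligase atrogin-1 in muscle atrophy, had the largest change. It ran from 93.6 to 132.9 CPM in EtOH_CON (median 118.4) and from 154.4 to 237.8 CPM in Cort_CON (median 186.7). On atglistatin it ran from 120 to 157.8 CPM with vehicle (median 134.5) and from 176 to 249.2 CPM with corticosterone (median 214.5). The groups did not overlap on either diet. The log2 fold change was 0.74 (SE 0.07, adjusted p = 6.71e-13) on the control diet and 0.65 (SE 0.07, adjusted p = 5.79e-11) on atglistatin.

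Other eIF3 subunits rose by less. Eif3g, which binds RNA during scanning, rose by 0.40 (SE 0.07, adjusted p = 1.36e-05) and 0.35 (SE 0.07, adjusted p = 0.000155), from 50.7 to 60.4 CPM in EtOH_CON to 60.8 to 90.4 CPM in Cort_CON, without overlap. Eif3e, Eif3h and Eif3k had changes of 0.36, 0.32 and 0.33 on the control diet and 0.27, 0.30 and 0.24 on atglistatin, all called. Eif3j1, whose protein joins the complex loosely, had 0.48 on both diets (adjusted p = 0.0033 and 0.00445). On the control diet Eif3j1 was at 0.386 without p01 (adjusted p = 0.00625) and 0.399 without p45 (adjusted p = 0.00979). With nondiabetic Cort_CON mice only, Eif3j1 was at 0.235 and not called (adjusted p = 0.29). Its near-identical copy Eif3j2, with medians of 1.88 CPM in EtOH_CON and 2.54 CPM in Cort_CON, was at 0.65 (adjusted p = 0.0119) and 0.45 (adjusted p = 0.097), and reads could be split between both copies. The scaffold subunit Eif3a was called on neither diet (0.08 and 0.10), as was Eif3m (0.05 and 0.14). Eif3l was at -0.01 on the control diet (interval from -0.13 to 0.12) and rose by 0.18 on atglistatin (adjusted p = 0.0215). Its interaction was 0.19 (SE 0.09), the smallest unadjusted p of the members in that test (0.0379) with an adjusted p of 0.89.

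**Figure D4:**
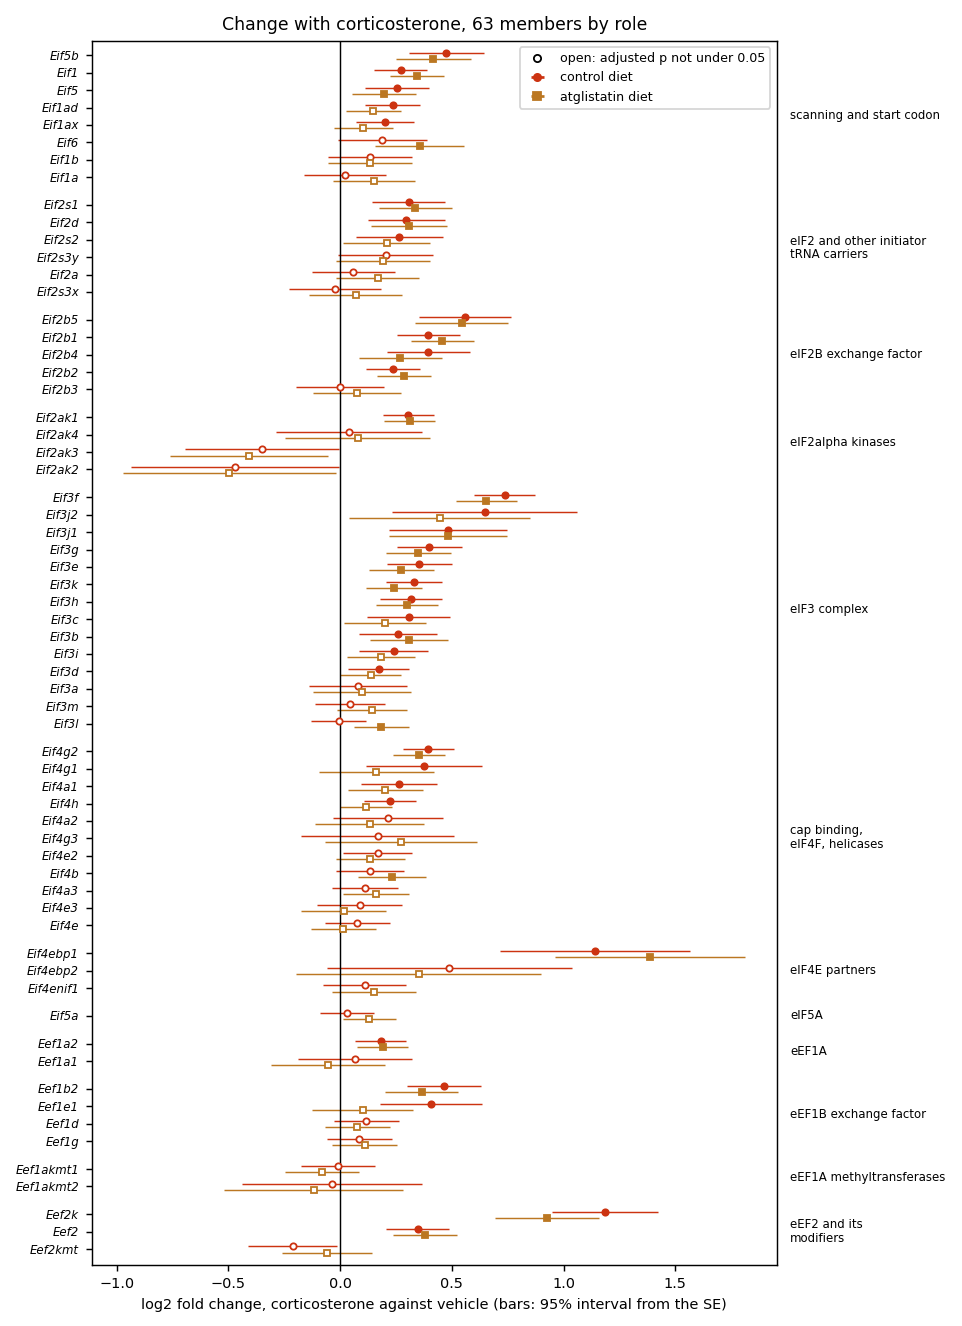
Log2 fold change of 63 translation factor genes, corticosterone against vehicle, on the control diet (circles) and atglistatin diet (squares), grouped by role, with 95% intervals from the SE. Filled symbols passed the test: 34 on the control diet and 26 on atglistatin, all to the right of 0.

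For eIF2B, the exchange factor that reloads eIF2 with GTP, 4 of 5 subunit genes rose on each diet, and these were Eif2b1, Eif2b2, Eif2b4 and Eif2b5. This is 80% on each diet, beside 38.4% and 30% of all genes called. Eif2b5 (chromosome 16, 20498817 to 20509323, plus strand) ran from 19.6 to 46.3 CPM in EtOH_CON (median 38.9) and from 37.3 to 79.8 CPM in Cort_CON (median 58.4). On atglistatin it ran from 28.4 to 51.8 CPM with vehicle (median 37.3) and from 46.8 to 66.3 CPM with corticosterone (median 59.2). The groups overlapped at their edges, with 10 of 14 and 11 of 14 corticosterone libraries above all vehicle libraries of the diet. Its log2 fold change was 0.56 (SE 0.11, adjusted p = 2.15e-05) on the control diet and 0.54 (SE 0.11, adjusted p = 4.91e-05) on atglistatin, and without p01 it was 0.48 (adjusted p = 5.47e-05) on the control diet.

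Eif2b1, of the regulatory part of the complex, had the next change, 0.40 (SE 0.07, adjusted p = 9.54e-06) and 0.46 (SE 0.07, adjusted p = 8.56e-07), and on atglistatin its groups did not overlap (24.6 to 31.9 CPM against 32.6 to 47.99 CPM). Eif2b2 had 0.24 (adjusted p = 0.00163) and 0.29 (adjusted p = 0.000236), and under total count scaling its control diet value was 0.12 and not called (adjusted p = 0.17). Eif2b4 had 0.40 (adjusted p = 0.000589) and 0.27 (adjusted p = 0.024). Eif2b3 was at 0.00 (interval from -0.20 to 0.20) and 0.08 (interval from -0.12 to 0.27), so a change of the size seen in Eif2b5 lay outside both intervals.

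Of 6 genes for eIF2 and the other carriers of initiator tRNA, 3 rose on the control diet and 2 on atglistatin. The shares were 50% and 33.3%, all upward, beside 38.4% and 30% of all genes called in either direction and 18.9% and 15% called higher. Eif2s1, the alpha subunit that the stress kinases phosphorylate, ran from 24.1 to 37.7 CPM in EtOH_CON (median 29.7) and from 29.1 to 43.9 CPM in Cort_CON (median 36.5), overlapping over most of that range. It rose by 0.31 (SE 0.08, adjusted p = 0.0025) and 0.34 (SE 0.08, adjusted p = 0.00134). The control diet call of Eif2s1 was lost under total count scaling (0.19, adjusted p = 0.11) and with nondiabetic Cort_CON mice only (0.26, adjusted p = 0.091). The gamma subunit genes Eif2s3x and Eif2s3y, close copies on the X and Y chromosomes, were called on neither diet, at -0.02 and 0.07 for Eif2s3x and at 0.20 and 0.19 for Eif2s3y. Without p01 the control diet value of Eif2s3x was 0.06. Reads could be split between these copies, so both values are uncertain. Eif2d, an alternative initiator, was called on both diets (0.30 and 0.31). Eif2s2, the beta subunit, was called on the control diet (0.26, adjusted p = 0.030) and lost that call when any 1 of 6 libraries was left out. Without p01 it had 0.17 (adjusted p = 0.0863).

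The 4 kinases of eIF2alpha differed in direction of the fitted values, and 1 of them was called on each diet. That is 25% on each diet, upward both times. In either direction 38.4% and 30% of all genes were called, and 18.9% and 15% were called higher. Eif2ak1 (HRI, the heme-regulated kinase) ran from 35.5 to 41.3 CPM in EtOH_CON (median 39.3) and from 42.9 to 56.1 CPM in Cort_CON (median 49.3), without overlap. It rose by 0.30 (SE 0.06, adjusted p = 2.35e-05) and 0.31 (SE 0.06, adjusted p = 2.41e-05). It overlaps Aimp2 on the other strand, which fell on both diets (-0.48 and -0.65). Eif2ak2 (PKR, activated by double-stranded RNA) was low, at medians of 1.56 CPM in EtOH_CON and 1.06 CPM in Cort_CON, with changes of -0.47 (interval from -0.94 to -0.01, adjusted p = 0.11) and -0.50 (interval from -0.97 to -0.02, adjusted p = 0.12). Eif2ak3 (PERK, of the endoplasmic reticulum) had -0.35 (adjusted p = 0.11) and -0.41 (adjusted p = 0.081), and was called lower on atglistatin without library p14 of Cort_ATGLi (-0.48, adjusted p = 0.0383). Eif2ak4 (GCN2, which senses uncharged tRNA) had 0.04 (interval from -0.29 to 0.37) and 0.08 (interval from -0.25 to 0.40).

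Among 8 genes grouped here under scanning, start codon choice and subunit joining, 5 rose on the control diet and 4 on atglistatin. These are 62.5% and 50%, beside 38.4% and 30% of all genes called. The group counts Eif1ad, which shares the eIF1A name, and it was called on the control diet alone (0.235, adjusted p = 0.00205). Eif5b, the GTPase that joins the ribosomal subunits, ran from 190.8 to 358.4 CPM in EtOH_CON (median 322.5) and from 371.1 to 546.8 CPM in Cort_CON (median 418.9), without overlap. It rose by 0.48 (SE 0.09, adjusted p = 9.3e-06) and 0.42 (SE 0.09, adjusted p = 0.000116), and by 0.41 (adjusted p = 2.56e-05) on the control diet without p01, its lowest library. Eif1, which guards start codon choice, rose by 0.27 (SE 0.06, adjusted p = 0.000289) and 0.34 (SE 0.06, adjusted p = 1.03e-05). Its medians were 548.5, 609.6, 651.6 and 769 CPM in EtOH_CON, EtOH_ATGLi, Cort_CON and Cort_ATGLi, and vehicle and corticosterone libraries overlapped on both diets. Eif6, which keeps the large subunit from joining, had 0.19 (interval from -0.01 to 0.39, adjusted p = 0.14) on the control diet and rose on atglistatin (0.36, SE 0.10, adjusted p = 0.00572). Without p01 the control diet value of Eif6 was 0.12 (adjusted p = 0.35), and without p41 the atglistatin value was 0.28 (adjusted p = 0.0166). Eif5a, which relieves ribosome stalling, was called on neither diet, at 0.03 (interval from -0.09 to 0.15) and 0.13 (interval from 0.01 to 0.25, adjusted p = 0.10). Without p01, its highest EtOH_CON library, the control diet value of Eif5a was 0.08 (adjusted p = 0.28).

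The 2 genes for eEF1A, the carrier of aminoacyl-tRNA, gave different results. Eef1a2 (chromosome 2, 181147653 to 181157014, minus strand) ran from 688.4 to 1065 CPM in EtOH_CON (median 948.5), 883.6 to 1066 in EtOH_ATGLi (median 994.5), 950.6 to 1134 in Cort_CON (median 1065) and 1010 to 1341 in Cort_ATGLi (median 1133). It rose by 0.18 (SE 0.06, adjusted p = 0.0109) and 0.19 (SE 0.06, adjusted p = 0.00993), with overlapping groups, and by 0.14 (adjusted p = 0.044) on the control diet without p01. Under total count scaling the call was lost on both diets, at 0.07 (adjusted p = 0.35) and 0.15 (adjusted p = 0.051). With nondiabetic Cort_CON mice only, the control diet call was also lost (0.17, adjusted p = 0.12). Eef1a1 (chromosome 9, 78478449 to 78489151, minus strand) was counted at 39.8 to 53.9 CPM in EtOH_CON (median 48.2), 40.6 to 62.7 in EtOH_ATGLi (median 47.4), 38.7 to 69.4 in Cort_CON (median 47.7) and 30.9 to 121.2 in Cort_ATGLi (median 43.9). It was called on neither diet, at 0.07 (interval from -0.19 to 0.32, adjusted p = 0.72) and -0.05 (interval from -0.31 to 0.20, adjusted p = 0.80). Processed copies of Eef1a1 are common in the genome, and the handling of reads that match several places is not stated, so its level is uncertain.

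The log2 ratio of Eef1a2 to Eef1a1 counts within a library needs no scaling between libraries. Its mean was 4.32 ± 0.20 (SD, n = 10) in EtOH_CON, 4.33 ± 0.28 (SD, n = 10) in EtOH_ATGLi, 4.45 ± 0.24 (SD, n = 14) in Cort_CON and 4.64 ± 0.51 (SD, n = 14) in Cort_ATGLi. None of 4 comparisons passed a two-sided permutation test with 100000 resamples: the difference was 0.13 for corticosterone on the control diet (p = 0.162, adjusted p = 0.323) and 0.31 on atglistatin (p = 0.103, adjusted p = 0.323). For atglistatin it was 0.01 in vehicle mice (p = 0.952) and 0.19 in corticosterone mice (p = 0.245, adjusted p = 0.326). One library decided both comparisons that hold Cort_ATGLi: its p41 had the highest Eef1a1 level and the lowest ratio (3.06) of all 48. Without it the ratio was higher with corticosterone on atglistatin by 0.43 (permutation test, p = 0.00018) and higher in Cort_ATGLi than in Cort_CON by 0.31 (permutation test, p = 0.00062), and Eef1a1 was called lower on atglistatin (-0.24, SE 0.08, adjusted p = 0.0241). Without p45 the difference on the control diet was 0.17 (permutation test, p = 0.0468). These p-values without 1 library are not adjusted over the 4 comparisons.

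**Figure D5:**
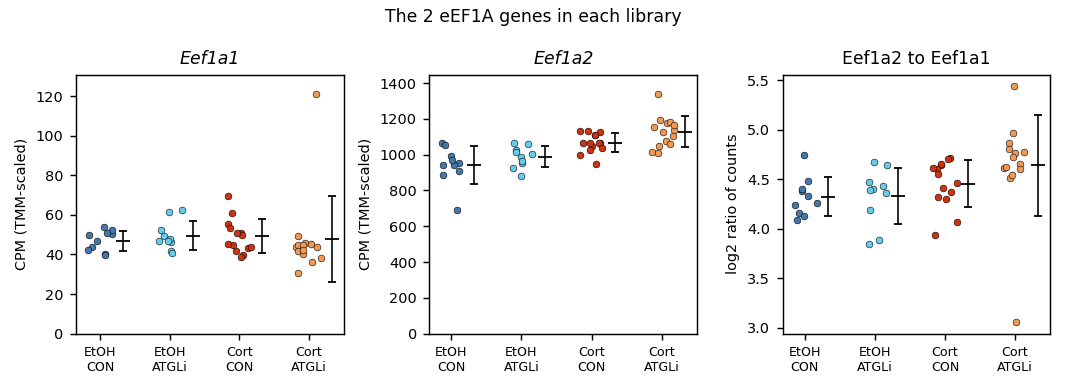
CPM (TMM-scaled) of Eef1a1 and Eef1a2 and the log2 ratio of their counts in each library of the 4 groups, with mean ± SD beside the points. One Cort_ATGLi library, p41, has 121.2 CPM of Eef1a1 and a ratio of 3.06.

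Of the genes for the exchange factor eEF1B (Eef1b2, Eef1d and Eef1g), only Eef1b2 was called, on both diets. Counted with Eef1e1, which shares the name and is not an eEF1B subunit, 2 of 4 genes rose on the control diet and 1 on atglistatin. These shares are 50% and 25%, beside 38.4% and 30% of all genes called. Eef1b2, a nucleotide exchange subunit, ran from 185.5 to 256.6 CPM in EtOH_CON (median 232.4) and from 238.9 to 406 CPM in Cort_CON (median 310.7), with 12 of 14 Cort_CON libraries above all EtOH_CON libraries. It rose by 0.47 (SE 0.08, adjusted p = 9.04e-06) and 0.36 (SE 0.08, adjusted p = 0.000506). Eef1d and Eef1g, the other subunits, were called on neither diet, at 0.12 and 0.09 on the control diet and 0.08 and 0.11 on atglistatin. Eef1e1, which sits in the tRNA synthetase complex, was called on the control diet (0.41, adjusted p = 0.00378) and was at 0.10 on atglistatin (adjusted p = 0.56), with an interaction of -0.31 (SE 0.16, adjusted p = 0.93). The eEF1A methyltransferases Eef1akmt1 and Eef1akmt2 were called on neither diet.

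Separation of whole groups was also counted. On the control diet, 6 members (9.52%) had every corticosterone library above every vehicle library: Eef2k, Eif2ak1, Eif3f, Eif3g, Eif4ebp1 and Eif5b. Of all 12592 genes, 4.71% were separated in either direction, 299 upward and 294 downward. On atglistatin there were 3 members (4.76%), Eif2b1, Eif3f and Eif4ebp1. There 3.45% of all genes were separated in either direction, 232 upward and 203 downward. No member was separated downward on either diet. Counts of the members made up a median of 0.754% of all counts in EtOH_CON, 0.793% in EtOH_ATGLi, 0.839% in Cort_CON and 0.938% in Cort_ATGLi.

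No member was called for the atglistatin diet in the absence of corticosterone. In vehicle mice 0 of 63 members were called by edgeR and 0 by DESeq2 (edgeR called 0.0238% of all genes, 0.0159% higher and 0.00794% lower), 5 had an unadjusted p under the threshold, and fitted changes ran from -0.21 to 0.30. The smallest p among them was that of Eef2, at 0.23 (interval from 0.07 to 0.38, adjusted p = 0.45), followed by Eif3f at 0.21 (adjusted p = 0.49). In corticosterone mice (Cort_ATGLi against Cort_CON) 2 members rose and 0 fell, where 1.60% of all genes were called, 0.667% higher and 0.929% lower. These were Eef2, at 0.26 (SE 0.07, adjusted p = 0.0246), with all 14 Cort_ATGLi libraries above the Cort_CON median, and Eif1, at 0.22 (SE 0.06, adjusted p = 0.0246), likewise with all 14. Both kept the call when p41 or p45 was left out, and Eif1 lost it with only the groups compared in the fit (0.22, adjusted p = 0.082). Eif3l was at 0.20 (SE 0.06, adjusted p = 0.057) and was called by DESeq2 (adjusted p = 0.0274), with halved counts (adjusted p = 0.0409), under total count scaling (0.28, adjusted p = 0.0116), and in edgeR when any 1 of 7 libraries was left out. Cort_CON also serves as the treated group of the control diet comparison, and 9 of its 14 mice carry the diabetic label. Against the 5 labelled nondiabetic, Eef2 was at 0.31 (adjusted p = 0.081) and Eif1 at 0.26 (adjusted p = 0.071), in a fit with fewer mice.

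Eif4ebp1 was at 0.54 in Cort_ATGLi against Cort_CON (SE 0.19, adjusted p = 0.155). Library p45 decided this call: without it the change was 0.75 (SE 0.16, adjusted p = 0.00514), while without p41 it was 0.33 (adjusted p = 0.38). Against the nondiabetic Cort_CON mice alone it was 1.03 (adjusted p = 0.00868). Without p45, 5 members were higher and 1 lower (Eif4e, -0.22, adjusted p = 0.0357). The interaction of corticosterone and diet called 0 members by edgeR and 0 by DESeq2 (edgeR called 0.0397% of all genes, 0.0238% higher and 0.0159% lower), 1 had an unadjusted p under the threshold, and interaction values ran from -0.31 to 0.24.

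Lists of related genes held calls in both directions with corticosterone, to be read beside the 38.4% and 30% of all genes called. Among 31 regulators of translation, 12 rose and 4 fell on the control diet and 8 rose and 5 fell on atglistatin, with medians of 0.17 and 0.10. The mTORC1 inhibitors Ddit4 (2.99 and 2.47) and Sesn1 (1.89 and 1.37) rose on both diets, as did the poly(A) binding protein gene Pabpc4 (0.71 and 0.57), while Ddit4l, a relative of Ddit4, fell (-1.13 and -0.79). The called share of this list was 51.6% and 41.9%. The phosphatase gene Ppp2ca rose by 0.34 and 0.25. Of 15 genes of the integrated stress response, which lies downstream of the eIF2alpha kinases, 3 rose and 3 fell on each diet (40% called, near the share of all genes on the control diet): Cebpb (1.243 and 0.88) and Atf3 (1.55 and 1.28) rose, and Atf5 (-0.66 and -0.55) and Ddit3 (-0.81 and -0.35) fell.

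Genes for the steps next to initiation and elongation were counted likewise. Of 22 cytosolic tRNA synthetase genes and their scaffold, 7 rose and 1 fell on the control diet and 6 rose and 1 fell on atglistatin, among them Kars (0.51 and 0.38), with the scaffold gene Aimp2 the one that fell. The called shares of 36.4% and 31.8% are near those of all genes. In termination and recycling, 4 of 8 rose and 1 fell on the control diet and 3 rose and 1 fell on atglistatin. Etf1, the release factor, rose by 0.80 and 0.73, the recycling factor Abce1 rose by 0.37 and 0.42, and Pelo, which rescues stalled ribosomes, fell by 0.21 and 0.20. Of 12 genes for modification of the factors and selenocysteine insertion, 4 rose on the control diet, Dhps, Dohh, Dph3 and Secisbp2 (0.24 to 0.32). Dhps and Dohh make the hypusine of eIF5A, and on atglistatin 0 rose and 1 fell (Mettl13, -0.32). Of 10 mitochondrial translation factor genes 0 rose, while Gfm1 (-0.32) and Guf1 (-0.31) fell on the control diet and Guf1 (-0.29) fell on atglistatin. The members' own medians beside these were 0.23 and 0.19.

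Markers of fibres and of other cells in the muscle were counted in the same contrasts, to be read beside the 38.4% and 30% of all genes called. Of 10 markers of fibro-adipogenic cells, such as Col1a1 (-3.62 and -2.85), 0 rose and 9 fell on each diet, and their summed level was 2145 to 2956 CPM in EtOH_CON, 878.6 to 1781 in Cort_CON, 1505 to 2677 in EtOH_ATGLi and 1046 to 1342 in Cort_ATGLi. Of 10 endothelial markers 7 fell and 1 rose on the control diet (394.2 to 535.1 CPM summed in EtOH_CON, 296.1 to 540.5 in Cort_CON), and of 10 macrophage markers 5 fell and 1 rose (101.7 to 187.6 CPM summed in EtOH_CON, 80.1 to 150.4 in Cort_CON). On atglistatin these were 5 and 1 for endothelial and 4 and 1 for macrophage markers. Of 12 skeletal muscle markers 7 rose and 1 fell on the control diet and 6 rose and 1 fell on atglistatin, and of 8 slow fibre markers 3 and 4 rose and 0 fell. Smooth muscle and pericyte markers fell in 6 of 8 and 3 of 8 and rose in 0, and nerve and Schwann markers fell in 3 of 7 and 0 of 7. In the other direction, 4 of 5 erythroid markers rose on the control diet and 1 on atglistatin, with 0 lower. Of 6 satellite cell markers 2 rose and 2 fell, then 3 and 2, and their summed level had a median of 42.2 CPM in EtOH_CON and 59.0 CPM in Cort_CON. Of 8 adipocyte markers 2 rose and 1 fell, then 2 and 0. On the control diet the called shares of slow fibre and adipocyte markers (37.5% each) and nerve markers (42.9%) were near that of all genes called in either direction. On atglistatin those of erythroid (20%), adipocyte (25%), smooth muscle (37.5%) and nerve markers (0%) were near or below it. The other lists had larger shares. By direction, 18.9% and 15% of all genes were called higher and 19.5% and 15% lower. One nerve marker, Nefl, did not pass the low-count filter. Their part in the change of the translation factors was not tested.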

How the data were processed

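Read counts per gene were deposited by the authors as whole numbers, from a QuantSeq 3′ kit and 50 bp reads per the labels' protocols. The build GRCm38, R 3.6.1 and DESeq2 1.24.0 are named in the submitters' processing notes. For alignment, counting, strand handling and annotation the programs and settings were not given in the sources used here, so reads of the 13 members that overlap a counted gene on the other strand (among them Eef1b2, Eif2ak1, Eif2b4, Eif2s2, Eif3j1 and Eif5b) cannot be assigned with certainty. A second table was those counts divided by 1 factor per library and was not used. Symbols and coordinates came from GENCODE vM21 (GRCm38), where 14094 of 14125 gene IDs matched.

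Counts were kept by filterByExpr (minimum count 10, minimum total 15), which removed 1533 genes, scaled by TMM and tested with edgeR 4.0.16 (quasi-likelihood, robust, two-sided) in R 4.3.3, with 48 libraries in 1 fit of the 4 groups, or of 5 groups with Cort_CON split by disease label. P-values were adjusted by Benjamini-Hochberg over all genes tested. Adjusted p in the text is this value, SE is derived from the test, intervals are 95% from the SE, and CPM was computed from the deposited counts with TMM-scaled totals. Intervals cover the spread between libraries. The Eef1a2 to Eef1a1 ratio had 1 added to each count. The code was tested on simulated counts with known changes.

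Members and lists were chosen with earlier results of these data known. Named by rule were, per comparison, every called member (the 15 with the smallest p where there were more), 18 regulators and core factors, and up to 4 called genes of each related list. Other members were named after their values were seen. Alternatives were DESeq2 1.42.0, limma 3.58.1 voom, RLE and total count scaling, no filter, halved counts, only the groups compared, only nondiabetic Cort_CON mice, a replicate block, and leaving out libraries.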

Additional observations from a re-analysis of the deposited data

Results flagged for a closer look

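Of 68 vehicle groups of 10 libraries examined (34 members in 2 groups), 13 held 1 library whose gap to its nearest neighbour took up more of the group's range than Dixon's 95% critical value. For independent, normally distributed values chance alone gives about 1 in 20. The groups examined here are not independent, because 1 library can stand apart for many members, as p01 of EtOH_CON did. The groups of 14 were not examined.

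Library p01 of EtOH_CON was the lowest of its group by this measure for 9 members. Its levels were 688 CPM for Eef1a2 (the next library had 886), 390 CPM for Eef2 (588), 25.0 CPM for Eef2k (35.1), 24.4 CPM for Eif2b4 (38.6) and 19.6 CPM for Eif2b5 (33.2). They were 61.8 CPM for Eif3j1 (140), 84.0 CPM for Eif4g1 (294), 191 CPM for Eif5b (298) and 12.3 CPM for Eif6 (20.7). The same library was the highest for Eif5a, at 225 CPM (190). Without p01, 34 members rose and 0 fell with corticosterone on the control diet, as many as with it, and Eif1b and Eif4a3 were called in place of Eif2s2 and Eif3d.

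Library p10 of EtOH_CON was the highest for Eif2ak4 at 4.61 CPM (next 2.99) and for Eif4a1 at 23.2 CPM (18.4). Library p08 of EtOH_ATGLi was the highest for Eif4ebp1 at 68.6 CPM (57.1).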

How the results depend on the processing

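With corticosterone on the control diet, 34 members rose and 0 fell, and by DESeq2, RLE scaling, voom, no filter, halved counts, only the groups compared and without p01 and p41 between 31 and 34 rose. Total count scaling gave 19 higher and 2 lower, and 22 higher and 1 lower (Eef2kmt) came from nondiabetic Cort_CON mice only, with fewer mice. With these mice Eef1a2, Eif1ax, Eif2d, Eif2s1, Eif2s2, Eif3b, Eif3c, Eif3d, Eif3i, Eif3j1, Eif3j2 and Eif4g1 were no longer called. Voom gave 1 lower (Eif2ak3). Leaving out 1 library gave 32 to 34 higher and 0 to 1 lower (1 without p27). The cause was not tested. On atglistatin the 26 higher and 0 lower became 24 to 28 and 0 to 1 with 1 library left out (1 lower without p14 or p41), and 28 higher and 1 lower (Eef1a1) without p01 and p41. For Cort_ATGLi against Cort_CON the 2 higher became 4 by total count scaling (all genes then split into 226 higher and 68 lower in place of 84 and 117), 3 by DESeq2 and with halved counts (Eif3l added), 1 (Eef2) with only the groups compared, 1 (Eif4ebp1) with nondiabetic mice, and 2 to 5 higher and 0 to 1 lower with 1 library left out (5 and 1 without p45). The diet in vehicle mice, the interaction and the disease label had 0 called members in every alternative run.

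Some libraries of different groups share a number. Their deviations correlated by -0.06 to 0.16, so the numbers were not taken as pairs. A replicate block on p13 and p14 gave 14 higher and 1 lower (Eef1a1) on atglistatin, and the same 4 libraries without the block, added after seeing the data, 13 higher and 1 lower (Eef1a1). A block on p09 to p12 gave 0 calls for the diet in vehicle mice.

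Signs of uncalled members turned as follows, and the cause was not tested. On the control diet total count scaling gave -0.0398 for Eef1a1, -0.0746 for Eif2ak4, -0.0428 for Eif4e and -0.0895 for Eif5a, nondiabetic mice gave -0.0368 for Eif5a, and with 1 library left out Eif2ak4 ran from -0.0252 (without p32) to 0.1475. On atglistatin the replicate block gave 0.23 for Eif2ak3 and -0.16 for Eif4g1, total count scaling -0.0415 for Eif4e, and with 1 library left out Eif4e ran from -0.0156 (without p25) to 0.0442. The Eef1a2 to Eef1a1 difference, with 1 library left out, ran from 0.11 to 0.18 for corticosterone on the control diet, 0.25 to 0.43 on atglistatin, -0.0308 to 0.0607 for the diet in vehicle mice and 0.13 to 0.31 in corticosterone mice. Its p, not adjusted over the 4 comparisons, was under the threshold without p45 (0.17) in the first and without p41 in the second (0.43) and last (0.31).

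Calls at the threshold moved most with single libraries. Eif3d lost its call on the control diet without any 1 of 16 libraries, and Eif5 on atglistatin without any 1 of 12. Eif2ak2, Eif2ak3, Eif2ak4, Eif3j2 and Eef1akmt2 had group medians under 4 CPM, where few reads limit what can be detected.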
